A study of Mus musculus with 5 samples.

Results

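The extracellular matrix genes described here are 42 genes for collagens, laminins and other matrix proteins, named by a fixed list, of which 39 were represented on the array among 12393 genes. A gene was measured by probe sets annotated to it alone, and by the probe set with the highest mean signal where it had several. Fbn1, Efemp2 and Loxl2 had no such probe set and are not analysed here. Transcripts were measured with an Affymetrix array in ID8 cells, a line of mouse ovarian surface epithelium that forms peritoneal tumours with ascites. The ascites group (2 arrays, replicates 2 and 3) was cultured in DMEM with 10% ascites fluid taken from mice that carried ID8 tumours, for 7 days by the series design. The FBS group (3 arrays, replicates 1, 2 and 3) was the parental line in DMEM with 10% fetal bovine serum. From the labels it is not known if serum was also in the ascites medium, how long the FBS culture was, or if arrays of a group came from separate cultures. The p-values therefore describe the variation among the arrays alone, and part of it may be technical.

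Matrix proteins form fibrils, sheets and coats around cells. Fibrillar collagens are hydroxylated in the cell, assembled into triple helices, trimmed after secretion and crosslinked by lysyl oxidases, while type IV collagen and laminins form separate networks that nidogens and perlecan connect into basement membranes, such as the sheet under the mesothelium and the ovarian surface epithelium. Type VI collagen makes beaded microfilaments at the border between these compartments. Small leucine-rich proteoglycans such as decorin and biglycan bind collagen fibrils and growth factors.

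Signals are on the log2 scale and cannot be compared in level between probe sets. A change is the ascites mean less the FBS mean, given with its standard error (SE), and adjusted p-values come from limma fitted across all 12393 genes, with a threshold of 0.05. The 3 FBS arrays were not alike. Over all genes, the difference of FBS replicate 3 from FBS replicate 1, and from FBS replicate 2, had an SD of 0.427, while the difference between FBS replicates 1 and 2 had an SD of 0.117. Of the 39 matrix genes, 9 differed at least 2-fold between FBS replicate 3 and FBS replicate 1, and 0 did between FBS replicates 1 and 2. Each main result is therefore also given without FBS replicate 3, where the FBS spread rests on those nearly alike arrays and the p-values may overstate the evidence.

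Transcripts of many matrix genes were lower in ascites than in FBS, but the test over all 5 arrays called only Mgp. The change was below 0 for 27 of the 39 genes, above 0 for 11 and exactly 0 for Col8a1, against 49% of all genes below 0. The median change was -0.40 over the matrix genes and 0.00 over all genes. By limma, 1 matrix gene fell, where 2.59% of all genes did, and 0 rose, where 2.69% did. At an unadjusted limma p under 0.05 there were 13 lower and 2 higher of the 39. Of all 12393 genes, 1550 were lower and 1454 higher at that level, or 24.2% in both directions together. The arrays of the groups did not overlap for 20 of the 39, against 38% of all genes. All 9 matrix genes that changed at least 2-fold were lower in ascites, while 3.38% of all genes were at least 2-fold lower and 2.19% at least 2-fold higher. Without FBS replicate 3, 13 of the 39 fell and 0 rose (3 were higher at an unadjusted p under 0.05), against 10.9% of all genes fallen and 9.17% risen. The members of this gene list were chosen with earlier results of these data known, so these counts are descriptions and were given no test of their own.

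**Figure D1:**
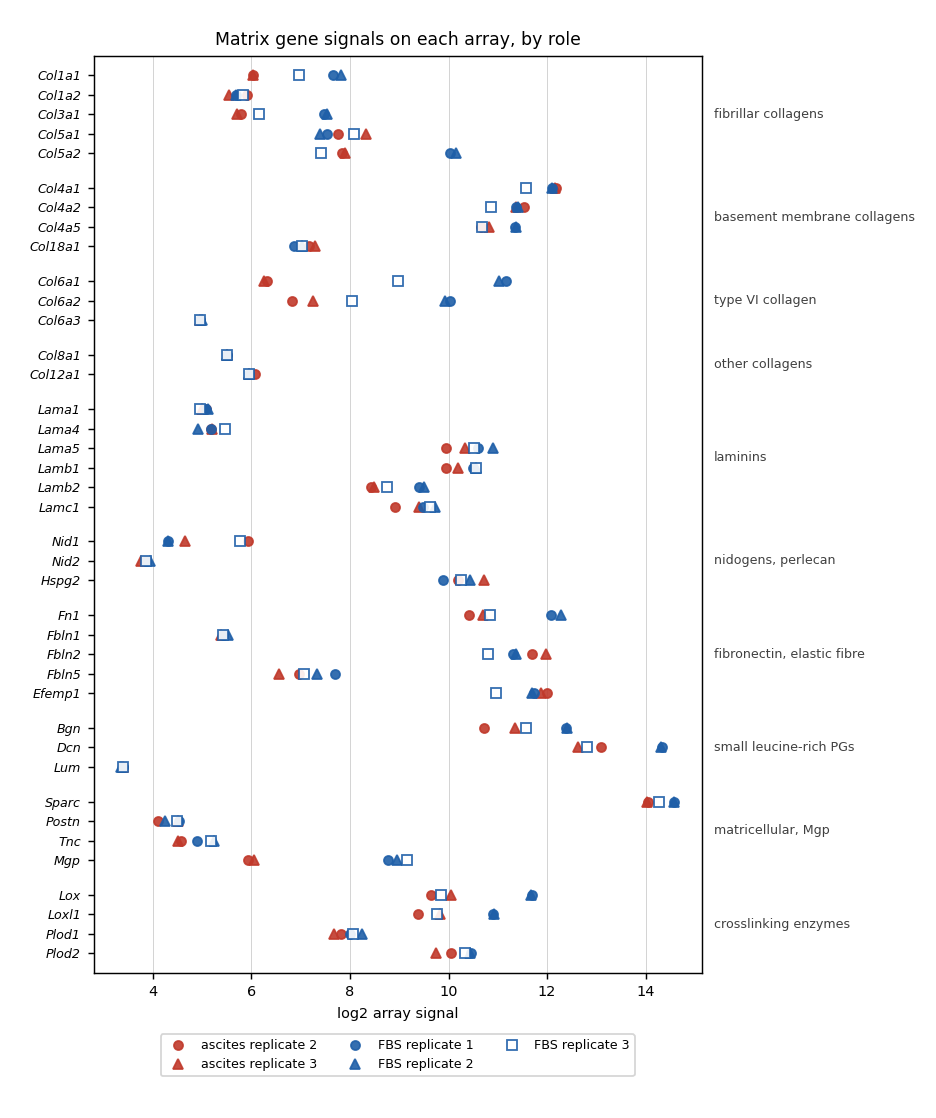
Log2 array signal (horizontal axis) of the 39 matrix genes (rows, grouped by role) on the 2 ascites arrays (red) and the 3 FBS arrays (blue, with FBS replicate 3 as an open square). For Col5a2, Lox, Dcn and Fn1 the open square lies with the ascites arrays, and for Mgp it lies with the other FBS arrays.

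Mgp, matrix Gla protein, is a small secreted protein known for keeping cartilage and vessel walls from calcifying. Its signal was 5.93 and 6.06 on the ascites arrays, against 8.78, 8.95 and 9.16 on the FBS arrays. All FBS arrays, replicate 3 included, were high and the groups did not overlap. Mgp fell by 2.97 on the log2 scale (SE 0.13, 7.83-fold lower, limma adjusted p = 0.0144), and fell by 2.87 without FBS replicate 3 (adjusted p = 0.00737). Mgp missed the threshold when ascites replicate 2 (adjusted p = 0.0891), ascites replicate 3 (0.124), FBS replicate 1 (0.139) or FBS replicate 2 (0.137) was left out, with changes of -3.06 to -2.90. The ascites signal lay at the 31.4 percentile of genes on the array and the files hold no detection call, so the fold is uncertain.

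Type VI collagen held the most negative change among the matrix genes. It is a trimer of alpha 1, alpha 2 and alpha 3 chains, encoded by Col6a1, Col6a2 and Col6a3, and Col6a1 and Col6a2 are neighbouring genes. The promoters of the chains are shown because 2 of the chains read far lower in ascites and the third was dim on every array. The sequences are the 250 bases before the RefSeq start site on GRCm38.p6, 5′ to 3′ on the strand of the gene, at chr10:76726045-76726294 (minus strand) for Col6a1, chr10:76623631-76623880 (minus) for Col6a2, of whose 2 listed starts the one farther upstream was used, and chr1:90843972-90844221 (minus) for Col6a3. Capitals mark matches on either strand to the CCAAT box (searched as those letters), the GC box in its simplest spelling (GGGCGG), the TATA box (TATAAA) and the AP-1 site (TGANTCA), and matches of different motifs did not overlap.
Col6a1: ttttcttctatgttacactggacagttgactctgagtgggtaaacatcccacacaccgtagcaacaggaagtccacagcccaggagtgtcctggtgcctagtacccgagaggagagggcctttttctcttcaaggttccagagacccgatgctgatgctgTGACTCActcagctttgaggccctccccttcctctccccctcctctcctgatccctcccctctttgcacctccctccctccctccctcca
Col6a2: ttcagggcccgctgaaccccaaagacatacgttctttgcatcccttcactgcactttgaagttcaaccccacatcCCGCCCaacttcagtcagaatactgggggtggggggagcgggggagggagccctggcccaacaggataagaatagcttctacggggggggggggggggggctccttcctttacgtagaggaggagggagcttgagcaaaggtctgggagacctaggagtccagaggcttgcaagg
Col6a3: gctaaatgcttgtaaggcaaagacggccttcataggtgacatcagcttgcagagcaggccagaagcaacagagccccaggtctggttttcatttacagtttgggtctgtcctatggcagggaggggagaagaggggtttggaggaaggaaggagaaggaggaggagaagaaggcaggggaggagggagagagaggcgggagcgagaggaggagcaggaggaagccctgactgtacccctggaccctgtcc

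The Col6a1 window held 1 match, to TGANTCA, which 6.75% of 32851 promoter windows of the same length held. The Col6a2 window held 1 match, to GGGCGG, found in 32.7% of windows, and the Col6a3 window held 0 of the 4 motifs. No motif was shared by Col6a1 and Col6a2 in these windows. Of the 25 measured matrix genes with a promoter in the table, 17 held GGGCGG, 8 held CCAAT (33.8% of all windows), 3 held TATAAA (12.4%) and 2 held TGANTCA. The median GC content of these 25 windows was 60.8%, against 52.4% of all windows. The 2 sets are unlike, since each of the 25 genes gave only its start farthest upstream, while all windows include every listed start. The other measured matrix genes, Mgp and Col1a1 among them, had no promoter in the table. A match is a description of the letters and not of binding.

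Col6a1 had signals of 6.31 and 6.26 on the ascites arrays, against 11.16, 11.02 and 8.98 on FBS replicates 1, 2 and 3. The ascites arrays were low and alike, FBS replicate 3 lay between them and the other FBS arrays, and the groups did not overlap. Its change of -4.10 (SE 0.76, 17.2-fold lower) was the most negative of all 12393 genes, yet it did not pass over all 5 arrays (adjusted p = 0.0624). Its ascites signal was at the 34.4 percentile of genes and the values carry no detection call, so the fold and this rank are uncertain. It fell by 4.80 without FBS replicate 3 (adjusted p = 0.00728).

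Col6a2 had signals of 6.82 and 7.24 in ascites, against 10.02, 9.93 and 8.05 in FBS. It followed the same order of arrays, with FBS replicate 3 in between and no overlap. The change was -2.30 (SE 0.70, adjusted p = 0.148), and Col6a2 fell by 2.95 without FBS replicate 3 (adjusted p = 0.0104). Col6a3, by contrast, read 4.96 on both ascites arrays and on FBS replicates 1 and 3, and 4.99 on FBS replicate 2, among the dimmest 25% of genes, so it was not shown to lie above background.

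The fibrillar collagens differed in the size of their changes, and 0 of the 5 passed with all 5 arrays (2 had an unadjusted limma p under 0.05). Col1a1 and Col1a2 encode the chains of type I collagen, the main fibril of connective tissue, Col3a1 encodes type III, and Col5a1 and Col5a2 encode chains of type V, which starts fibrils and limits their width. The median change of the 5 genes was -1.31. Col1a1 read 6.04 on both ascites arrays, against 7.66, 7.82 and 6.97 on the FBS arrays. The groups did not overlap, and its change was -1.44 (SE 0.28, adjusted p = 0.0683). Without FBS replicate 3 Col1a1 fell by 1.70 (adjusted p = 0.00791). Its ascites signal lay at the 31.9 percentile of genes, with no detection call, so the size of the change is uncertain.

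Col3a1 read 5.79 and 5.70 in ascites, against 7.47, 7.54 and 6.16 in FBS, so that FBS replicate 3 was closer to the ascites arrays than to the other FBS arrays. Its change was -1.31 (SE 0.49, adjusted p = 0.205), and it fell by 1.76 without FBS replicate 3 (adjusted p = 0.00737). The ascites signal of Col3a1 was at the 28.6 percentile of genes, so the size of this change is uncertain too. Col5a2, the neighbour of Col3a1 in the genome, read 7.83 and 7.90 in ascites, against 10.02, 10.15 and 7.42 in FBS. FBS replicate 3 was the lowest of the 5 arrays, so the groups overlapped. The change of Col5a2 was -1.33 (SE 0.96, adjusted p = 0.473) with all arrays, and it fell by 2.22 without FBS replicate 3 (adjusted p = 0.00737).

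Col5a1 was not lower in ascites. It read 7.76 and 8.32 in ascites, against 7.54, 7.40 and 8.08 in FBS, with a change of 0.37 (95% confidence interval -0.40 to 1.14, adjusted p = 0.504), and 0.57 without FBS replicate 3 (adjusted p = 0.211). Col1a2 changed by 0.00 at a mean signal of 5.73 in ascites and 5.73 in FBS, at the 28.5 percentile of genes in both and its further probe set read 3.72 on all arrays, so it was not shown to lie above background.

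Of the basement membrane collagens, Col4a1, Col4a2 and Col18a1 were not lower in ascites, while Col4a5 had the lower mean there, with overlap. Col4a1 and Col4a2 encode the chains of the common type IV network and are neighbours read in opposite directions, with RefSeq start sites 21 bases apart. Col4a1 read 12.18 and 12.15 in ascites, against 12.10, 12.10 and 11.57 in FBS. Col4a2 read 11.54 and 11.36 in ascites, against 11.37, 11.40 and 10.86 in FBS. In both genes the ascites arrays lay near FBS replicates 1 and 2, and FBS replicate 3 was the lowest array. The change was 0.24 for Col4a1 (95% confidence interval -0.29 to 0.77, adjusted p = 0.52) and 0.24 for Col4a2 (-0.30 to 0.78, adjusted p = 0.534), and 0.06 for each without FBS replicate 3.

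Col4a5, an alpha chain of another type IV network, read 10.65 and 10.81 in ascites, against 11.35, 11.37 and 10.68 in FBS. Its change was -0.40 (SE 0.25, adjusted p = 0.424), and it fell by 0.63 without FBS replicate 3 (adjusted p = 0.0234). Col18a1, whose product carries endostatin at its end, read 7.16 and 7.29 in ascites, against 6.87, 7.02 and 7.02 in FBS. The groups did not overlap, with a change of 0.26 (SE 0.08, adjusted p = 0.157). Of the other collagens, Col8a1, a network-forming chain, read 5.50 on all 5 arrays, and Col12a1, which decorates fibrils, read 6.07 and 5.96 in ascites against 5.96 on every FBS array. Such repeated values also occurred elsewhere, with 112 genes at the same value on all 5 arrays.

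By the probe set used, the laminin chains with clear signal were each a little lower in ascites. Laminins are trimers of an alpha, a beta and a gamma chain. Lamb1 had the tightest values, with 9.94 and 10.19 in ascites, against 10.50, 10.55 and 10.56 in FBS. FBS replicate 3 lay with the other FBS arrays, and the change was -0.47 (SE 0.09, 1.39-fold lower, adjusted p = 0.0676). The further probe sets of Lamb1 moved by -0.65 and -0.01, the second with overlap of the groups. Lamc1, the common gamma chain, read 8.91 and 9.40 in ascites, against 9.49, 9.73 and 9.62 in FBS (change -0.46, SE 0.18, adjusted p = 0.217). Its other probe set moved by 0.27, and the mean of both gave -0.10. Lama5, the alpha chain of most adult basement membranes, read 9.95 and 10.33 in ascites, against 10.60, 10.90 and 10.52 in FBS (change -0.53, SE 0.18, adjusted p = 0.171).

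Lamb2 read 8.43 and 8.49 in ascites, against 9.40, 9.51 and 8.76 in FBS. Its change was -0.76 (SE 0.26, adjusted p = 0.174), and of the laminin genes it alone passed without FBS replicate 3, falling by 0.99 (adjusted p = 0.0106). The groups' arrays did not overlap for Lamb1, Lamc1, Lama5 and Lamb2, as for 46.3% of all genes above the dimmest 25%. Lama1 and Lama4 lay among the dimmest 25% of genes and changed by -0.01 and 0.01. The linkers of the basement membrane did not pass either. Hspg2, which encodes perlecan, a large heparan sulfate proteoglycan, read 10.19 and 10.72 in ascites, against 9.89, 10.43 and 10.26 in FBS, with overlap (change 0.26, SE 0.24, adjusted p = 0.574). Nid1 was dim and uneven, with 5.93 and 4.65 in ascites against 4.30, 4.30 and 5.77 in FBS, and Nid2 was dim, with a change of -0.08.

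Fibronectin and the fibulins differed from each other in the sign of their changes. Fn1 encodes fibronectin, which binds integrins and collagen and serves peritoneal attachment of ovarian cancer cells. It read 10.41 and 10.69 in ascites, against 12.08, 12.28 and 10.84 in FBS. The groups did not overlap, but FBS replicate 3 was closer to both ascites arrays than to the other FBS arrays. The change was -1.18 (SE 0.49, adjusted p = 0.249), and Fn1 fell by 1.63 without FBS replicate 3 (adjusted p = 0.0158).

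Fbln2, fibulin 2, which links fibronectin, elastic fibres and basement membranes, was the matrix gene with the most positive change. It read 11.70 and 11.98 in ascites, against 11.31, 11.36 and 10.80 in FBS, with no overlap. The change was 0.68 (SE 0.22, 1.61-fold, unadjusted p = 0.0305 and adjusted p = 0.156 by limma), and 0.50 without FBS replicate 3 (adjusted p = 0.0783). Efemp1, fibulin 3, read 12.00 and 11.87 in ascites, against 11.73, 11.69 and 10.96 in FBS (change 0.48, SE 0.28, adjusted p = 0.395). Fbln5, which helps to assemble elastic fibres, read 6.97 and 6.57 in ascites, against 7.69, 7.34 and 7.07 in FBS (change -0.60, SE 0.23, adjusted p = 0.226). Fbln1 was dim and changed by -0.06.

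The small leucine-rich proteoglycans decorin and biglycan were lower in ascites than on FBS replicates 1 and 2. Bgn, biglycan, read 10.72 and 11.35 in ascites, against 12.38, 12.40 and 11.58 in FBS. The groups did not overlap, and the change was -1.08 (SE 0.35, adjusted p = 0.164), or -1.35 without FBS replicate 3 (adjusted p = 0.0527), which also missed the threshold. Dcn, decorin, read 13.09 and 12.62 in ascites, against 14.32, 14.30 and 12.81 in FBS. FBS replicate 3 lay between the 2 ascites arrays. The change of Dcn was -0.95 (SE 0.56, adjusted p = 0.398), and it fell by 1.46 without FBS replicate 3 (adjusted p = 0.0288). Lum, lumican, a neighbour of Dcn in the genome, read 3.36 to 3.39 on all arrays, among the dimmest genes.

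Sparc, an acidic glycoprotein that binds collagen, lay at the 99.5 percentile of genes in ascites and 99.8 in FBS. It read 14.05 and 14.02 in ascites, against 14.57, 14.58 and 14.26 in FBS, with no overlap. The change was -0.43 (SE 0.12, adjusted p = 0.126), and it fell by 0.54 without FBS replicate 3 (adjusted p = 0.0117). Tenascin C (Tnc) and periostin (Postn), matricellular proteins of wounds and tumour stroma, were both among the dimmest 25% of genes. Tnc read 4.58 and 4.52 in ascites, against 4.89, 5.25 and 5.18 in FBS (change -0.56, SE 0.13, adjusted p = 0.088), and Postn changed by -0.11.

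Lox, Loxl1, Plod1 and Plod2, the 4 measured lysyl oxidases and lysyl hydroxylases of the fixed list, were lower in ascites, and 0 passed with all 5 arrays (2 had an unadjusted limma p under 0.05). Lox, lysyl oxidase, which starts the crosslinking of collagen and elastin, read 9.64 and 10.05 in ascites, against 11.70, 11.68 and 9.84 in FBS. FBS replicate 3 lay between the ascites arrays, so the groups overlapped. The change of Lox was -1.23 (SE 0.68, adjusted p = 0.374), and it fell by 1.84 without FBS replicate 3 (adjusted p = 0.0166). Loxl1, a relative active in elastic fibres, read 9.37 and 9.83 in ascites, against 10.90, 10.93 and 9.77 in FBS, again with overlap (change -0.93, SE 0.44, adjusted p = 0.30). Loxl1 fell by 1.31 without FBS replicate 3 (adjusted p = 0.0329).

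Plod1 and Plod2, lysyl hydroxylases that prepare lysines for crosslinks, had tighter values, and FBS replicate 3 lay near the other FBS arrays. Plod2 read 10.05 and 9.75 in ascites, against 10.45, 10.44 and 10.34 in FBS, with no overlap. Its change was -0.51 (SE 0.11, adjusted p = 0.0805), and -0.55 without FBS replicate 3 (adjusted p = 0.0747). Plod1 read 7.81 and 7.68 in ascites, against 8.01, 8.25 and 8.06 in FBS, with no overlap (change -0.36, SE 0.10, adjusted p = 0.121).

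**Figure D2:**
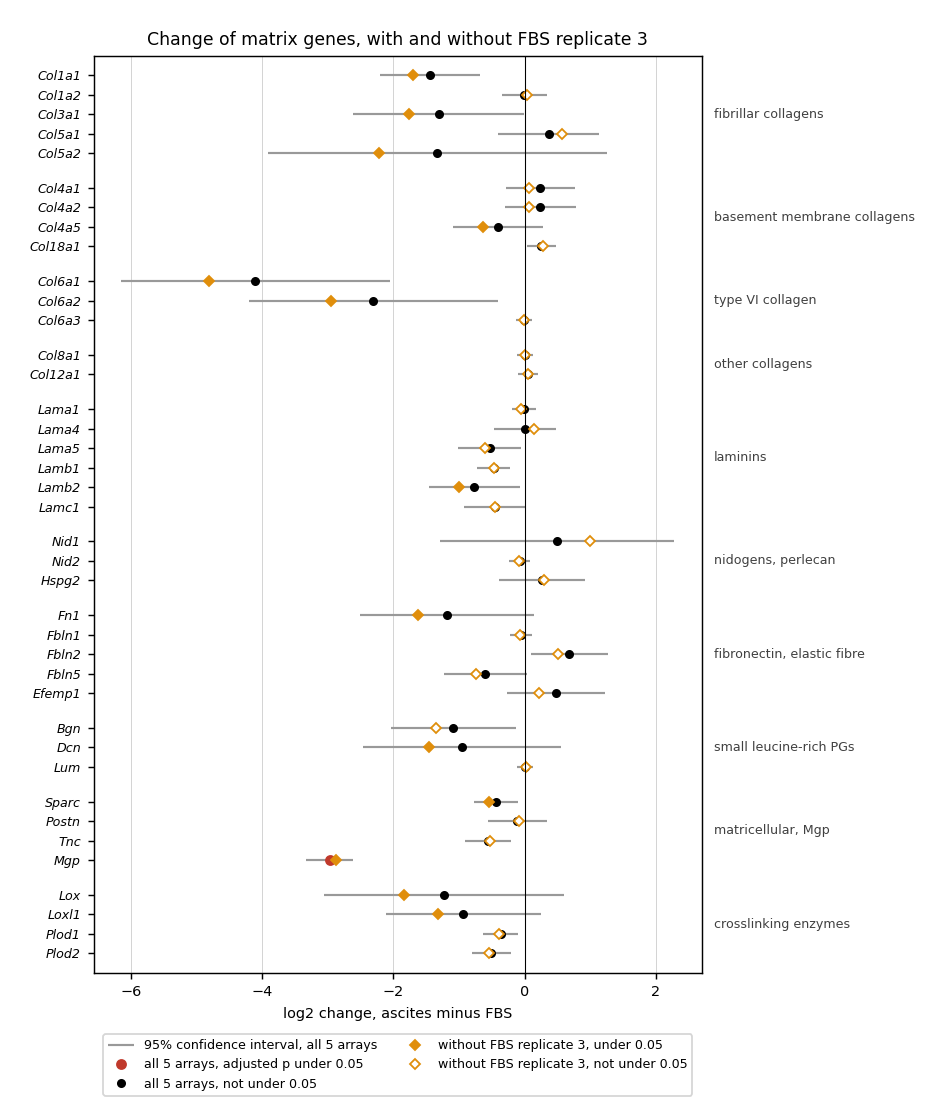
Log2 change, ascites minus FBS (horizontal axis), of the 39 matrix genes (rows, by role), with all 5 arrays (circles, with bars for the 95% confidence interval) and without FBS replicate 3 (diamonds), filled red or orange where the limma adjusted p was under 0.05. With all arrays Mgp alone is red, and without FBS replicate 3 there are 13 filled diamonds, all left of 0.

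The place of FBS replicate 3 differed among the genes. The ascites mean lay at least 2-fold from the mean of FBS replicates 1 and 2 for 11 matrix genes, all lower in ascites. For 8 of these (Col3a1, Col5a2, Col6a2, Fn1, Bgn, Dcn, Lox and Loxl1) FBS replicate 3 lay nearer to the ascites mean than to FBS replicates 1 and 2, against 38.2% of the 848 such genes on the array. Col1a1, Col6a1 and Mgp were the other 3. FBS replicate 3 minus the mean of FBS replicates 1 and 2 was -2.67 for Col5a2 and -2.11 for Col6a1, against 0.30 for Mgp. Whether FBS replicate 3 or the other FBS arrays stand for the parental culture cannot be told from these arrays.

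**Figure D3:**
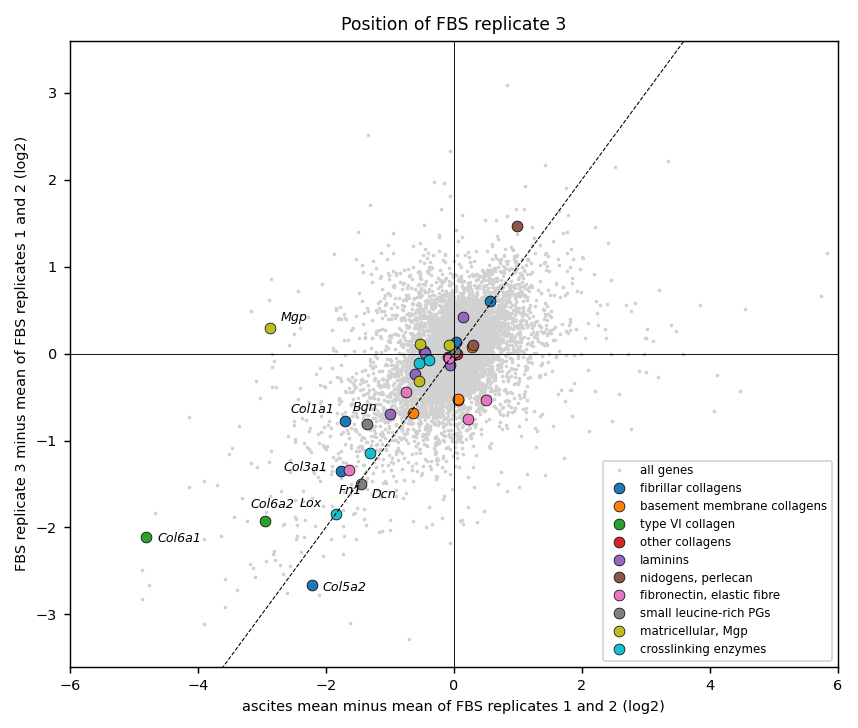
Difference of the ascites mean from the mean of FBS replicates 1 and 2 (horizontal axis, log2) and of FBS replicate 3 from the same mean (vertical axis, log2), for all genes (grey) and the matrix genes (coloured by role), with the line of equality dashed. Both axes share FBS replicates 1 and 2; Col5a2, Lox and Dcn lie on or below the line, and Mgp lies above 0 on the vertical axis.

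More than 1 probe set was present for 22 of the matrix genes, with 26 further probe sets. Of these, 22 changed in the same direction as the probe set used. All 9 further probe sets of genes that changed at least 2-fold were also lower in ascites, with -1.87 for Col6a2, -0.71 for Col1a1, -0.91 for Col5a2, and -1.12 and -1.01 for Bgn. The further one of Fn1 moved by -0.94 at a dim signal, with 4.51 and 4.27 in ascites against 5.28, 5.23 and 5.48 in FBS. On it FBS replicate 3 was the highest array and did not lie near ascites. Those of Lox moved by -0.74 and -0.02, the second at a dim signal, and the dim one of Col3a1 by -0.29. Lamc1 disagreed, with 0.27 for its other probe set. Col6a1 and Mgp had a single probe set each.

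**Figure D4:**
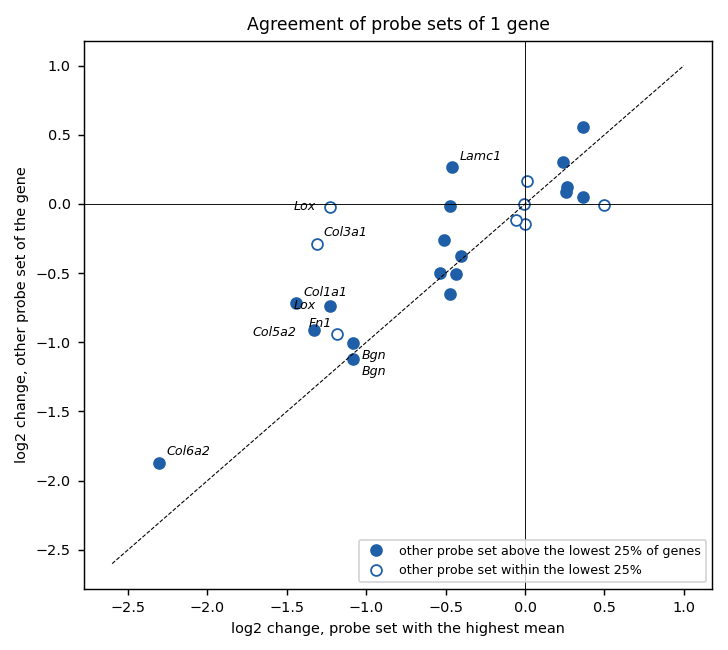
Log2 change, ascites minus FBS, of the probe set with the highest mean (horizontal axis) and of each further probe set of the same gene (vertical axis), for 22 matrix genes, with open circles for probe sets within the dimmest 25% of genes and the line of equality dashed. The further probe sets of the genes left of -1 all lie below 0.

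Other matrix genes, in 8 lists of further members of these families and of their partners, had a median change of 0.00 over 145 measured genes, with 5 fallen and 3 risen by limma, against 2.59% and 2.69% of all genes. When any array other than FBS replicate 3 was left out, 0 of all 12393 genes were called, so these calls share the limit given for Mgp. Among 22 other collagens 0 passed the threshold (1 had an unadjusted p under 0.05). The smallest p was for Col17a1, a hemidesmosome collagen (change -0.88, SE 0.31, adjusted p = 0.183). Of 20 collagen folding and processing genes 1 fell, P3h1, a collagen prolyl 3-hydroxylase, which averaged 7.59 ± 0.05 in ascites (SD, n = 2) and 8.23 ± 0.13 in FBS (SD, n = 3; change -0.63, adjusted p = 0.0442). Of 13 elastic fibre genes 0 passed the threshold (2 had an unadjusted p under 0.05), with the smallest p for Mfap3 (change -0.43, adjusted p = 0.128). The largest change of that list was a higher signal, for Ltbp1. It read 8.51 and 9.48 in ascites, against 7.36, 7.08 and 8.17 in FBS (change 1.46, SE 0.46, limma adjusted p = 0.158).

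Of 10 other laminins and basement membrane genes 1 rose, Npnt, nephronectin, an integrin alpha 8 ligand, with 8.13 and 7.86 in ascites, against 6.65, 6.40 and 6.43 in FBS (change 1.50, SE 0.13, adjusted p = 0.0192). Of 27 other proteoglycans 1 rose, Srgn, serglycin, a granule proteoglycan best known in blood cells, with 8.32 and 7.48 in ascites, against 4.89, 5.12 and 4.80 in FBS (change 2.96, SE 0.28, adjusted p = 0.0223). Of 25 other glycoproteins 1 fell, Thbs1, thrombospondin 1, with 5.90 and 6.25 in ascites, against 7.96, 7.59 and 7.76 in FBS (change -1.69, SE 0.16, adjusted p = 0.0227). In these 3 genes FBS replicate 3 lay with the other FBS arrays. Srgn in FBS was at the 19.1 percentile of genes and Thbs1 in ascites at the 32.2, so the size of either change is uncertain.

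Receptors and regulators of the matrix also held calls in both directions. Of 13 matrix receptors, Ddr2, a receptor kinase for fibrillar collagen, rose, with 9.34 and 9.38 in ascites, against 7.57, 7.81 and 7.27 in FBS (change 1.81, SE 0.17, adjusted p = 0.0227). Dag1, dystroglycan, a laminin receptor, fell, with 11.47 and 11.26 in ascites, against 12.74, 12.76 and 12.29 in FBS (change -1.23, SE 0.18, adjusted p = 0.0438). Of 16 regulators, Tgfb3, a ligand of the TGF-beta family that drives matrix synthesis in many cells, fell, with 9.28 and 9.18 in ascites, against 11.51, 11.57 and 10.78 in FBS (change -2.06, SE 0.28, adjusted p = 0.0382). Tgfbr2, a receptor for it, fell by 0.94 (SE 0.15, adjusted p = 0.0466).

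Markers of cell types were read beside these results. Of 12 ovarian surface and mesothelial markers 10 were lower in ascites, with a median change of -0.97, and FBS replicate 3 differed from the mean of FBS replicates 1 and 2 by a median of -0.74. Krt18 and Krt19, epithelial keratins, fell and Nr2f2 rose. The list's summed linear signal was 29131 to 33519 in ascites, against 81099, 81231 and 46337 on FBS replicates 1, 2 and 3. That of the 39 matrix genes was 53617 to 53748 in ascites, against 88350, 89966 and 53483. Both sums were lower in ascites than on FBS replicates 1 and 2. On FBS replicate 3 the marker sum stayed above ascites, while the matrix sum lay just below it. A linear sum is led by its brightest probe sets, and this contrast was not seen in the mean log2 signal. By that mean, FBS replicate 3 lay above ascites replicates 2 and 3 in both lists. It was 8.25 against 7.98 and 8.03 for the matrix genes, and 10.65 against 10.27 and 10.05 for the markers. The part of these markers in the change of the matrix genes was not tested. In a bulk culture, fewer cells of a type and less RNA per cell cannot be told apart. None of 10 fibroblast markers passed the limma threshold (1 had an unadjusted p under 0.05). Their summed signals were 435 to 449 in ascites and 445 to 460 in FBS. Pdgfra, Pdgfrb, Thy1 and Cd34 were at or below the 25.7 percentile of genes in both groups. Clec3b lay at the 36.6 percentile in ascites and the 35.6 in FBS. Of 12 macrophage markers 0 passed the limma threshold (0 at an unadjusted p under 0.05). Their summed signals were 617 to 714 in ascites and 574 to 653 in FBS. Ptprc, the pan-leukocyte marker, was below the 2.3 percentile in both groups. Cd14, the highest of the list, was at the 44.1 percentile in ascites and the 40.7 in FBS.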

How the data were processed

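Transcripts were measured on 5 single-colour Affymetrix arrays, grouped by sample title. Affymetrix Expression Console made the values, per the submitters' processing notes, which give no version or algorithm. The authors' deposited values are log2 signals per probe set, judged so from their range of 2.63 to 15.38. Array medians were close, at 7.40 to 7.47, and the arrays may have been normalized to each other, which the notes do not state. A change of total RNA therefore cannot be read from these values. No detection calls were used; the number of arrays limits the precision.

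Of 22690 probe sets, 64 were controls, 691 had several genes, 1555 were unnamed and 20380 had 1 gene in the platform annotation, of which 20351 matched a RefSeq table (GRCm38.p6) by Entrez identifier. Each of 12393 genes was represented by its brightest probe set. limma 3.58.1 in R 4.3.3 (lmFit, eBayes, two-sided, no covariate, 3 residual and 1.33 prior degrees of freedom) was fitted to all genes with Benjamini-Hochberg adjustment. The fit was also run on simulated arrays with independent noise and no deviant array, which does not test the calls made here. Alternatives left out each array, added a replicate block, used quantile normalization, averaged probe sets, left out the dimmest 25% of genes, used an intensity trend, or averaged FBS replicates 1 and 2.

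Every member is described, with full values where the adjusted p was under 0.05 or the change at least 2-fold. From each list of other matrix genes, the called genes (at most 4) or the gene with the smallest p are named. Ltbp1 is also named, for the largest change of the elastic fibre list. Members and lists were chosen with earlier results of these data known. Promoter sequences are RefSeq's (GRCm38.p6). Markers of endothelial cells (9 measured), lymphocytes (7), adipocytes (4) and pericytes or smooth muscle (7) were also read, and 0 of them passed the threshold; 3, 3, 0 and 2 of them had an unadjusted limma p under 0.05.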

Additional observations from a re-analysis of the deposited data

How the results depend on the processing

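Counts of called genes depended on the arrays used. Leaving out 1 array at a time gave 0 to 13 fallen matrix genes (13 without FBS replicate 3, 0 without each of the others) and 0 risen throughout, and over all genes 0 to 1357 fallen and 0 to 1137 risen. With FBS replicates 1 and 2 averaged as 1 sample, 0 matrix genes fell (7 were lower and 1 higher at an unadjusted p under 0.05) and 0 genes fell or rose in all. The replicate block gave 0 fallen matrix genes (8 at an unadjusted p under 0.05) and 0 genes fallen or risen in all. The shared numbers are not stated to pair the arrays, and the differences between replicates 2 and 3 in ascites and in FBS correlated over genes at only 0.04. Quantile normalization gave 3 fallen matrix genes, with Col1a1 (adjusted p = 0.0441) and Col6a1 (0.0448) beside Mgp, and leaving out the dimmest 25% of genes, which removed 9 matrix genes, also gave 3 (Col1a1 0.0477, Col6a1 0.0431). Averaged probe sets and the intensity trend each gave 1, Mgp.

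The 6 matrix genes whose sign turned were not called under any of these settings. Lama4 turned to -0.06 with FBS replicates 1 and 2 averaged and to 0.00 (-0.0037) with quantile normalization, and Lama1 to 0.01 with those 2 replicates averaged. Leaving out 1 array gave ranges of -0.18 to 0.18 for Col1a2, -0.0550 to 0.0233 for Lama1, -0.12 to 0.15 for Lama4, -0.14 to 1.14 for Nid1, -0.0033 to 0.53 for Hspg2 and -0.32 to 0.0933 for Postn. The values carry no background level, so for the 9 dim genes a change cannot be told from none.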
